A study of Mus musculus with 2 samples.

Results

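Leukocytes leave the blood by rolling on selectins, arresting through integrins and following chemoattractants into the tissue. The 9 genes described here encode parts of that route: Selplg and Cd44, which carry glycans that selectins bind; Itgam, Itgal, Itgb2 and Itga4, which are integrin subunits; Icam1, a ligand of the β2 integrins; and Cxcr4 and Ltb4r1, receptors for CXCL12 and leukotriene B4. Their rows were found by symbol, and all 9 are among the 31053 genes of the count tables. The cells came from C57BL/6 mice whose eyes had been injected with zymosan, particles of yeast cell wall that provoke inflammation, and were collected with Ly6G beads from vitreous fluid and from a wash of the retinas. One library came from mice treated with NRS, the comparison serum, which the labels do not spell out, and the other from mice treated with antiserum to CXCR2, a chemokine receptor of neutrophils (aCXCR2). The age, sex and number of mice, the time after injection and any pooling of mice are not given in the sources used here.

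In neutrophils, PSGL-1 (the product of Selplg) and CD44 engage endothelial selectins during rolling. The integrin LFA-1 pairs the Itgal and Itgb2 subunits, Mac-1 pairs Itgam with Itgb2, and the Itga4 subunit pairs with other β chains to bind VCAM-1. CXCR4 holds neutrophils in the bone marrow and is known to increase as they age, and leukotriene B4 attracts neutrophils over short distances.

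There was 1 library per group, so no difference between NRS and aCXCR2 could be tested, and the intervals printed here are 95% intervals that cover counting error only. Levels are counts of unique molecular identifiers (UMIs, each marking 1 captured transcript) divided by all UMIs of the summed cells and multiplied by 1000000 (CPM), and ratios are log2 values of aCXCR2 over NRS. The libraries held 5655 NRS and 4826 aCXCR2 cells with at least 500 UMIs, 200 genes and at most 10% mitochondrial UMIs. Their medians were 4759 and 10383.5 UMIs per cell. The cells fell into 20 clusters, made without the 9 genes. Neutrophil markers named 7 clusters with 1783 NRS and 2481 aCXCR2 cells (31.5% and 51.4% of each library), and macrophage markers named 4 clusters with 607 and 1768 cells (10.7% and 36.6%). The purified cells thus held other types besides those the Ly6G+ label names. Ly6g itself stood at 23.4 CPM in NRS against 125 in aCXCR2 neutrophil-like cells and at 0.256 and 2.11 CPM in macrophage-scoring cells. Another 2649 NRS and 374 aCXCR2 cells met no naming rule, and 616 and 203 were rod-photoreceptor-like. Both libraries held 53 of the kept barcodes, and in 46 of these the smaller of the 2 cells had under 2% of the UMIs of the larger. Of these barcodes, 30 NRS cells were rod-like, and removing all shared barcodes changed no 2-fold count over the summed neutrophil-like, macrophage-scoring or all kept cells; single clusters were not rerun without them.

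Clusters are named by the leading genes that set them apart within their class. Different clusters held most of the neutrophil-like cells in the 2 libraries. In NRS these were Ccl9/Ppia (28.7%), Cstb/Ftl1 (26.8%) and Fgl2/Hdc (21.4%), and in aCXCR2 they were Pycard/Gpx1 (28.0%), Gbp2/Cxcl10 (20.3%), Cxcl3/Ccl4 (17.7%) and Retnlg/Ngp (16.2%). The Retnlg/Ngp cluster held 402 aCXCR2 cells and 5 NRS cells. Among macrophage-scoring cells, Spp1/Gpnmb held 43.3% in NRS and 6.84% in aCXCR2, and S100a4/Ccr2 held 5.11% and 32.9%. The Ccl8/Selenop cluster held 24.4% and 42.1%, and the Cxcl3/Mmp12 cluster 27.2% and 18.2%.

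Promoters are shown for the ligand gene Icam1 and the receptor genes Cxcr4 and Ltb4r1, each of which differed by 2-fold or more between the libraries in at least 1 cluster. Each is the 250 bases before the RefSeq start in GRCm38.p6, read 5′ to 3′ on the gene's own strand. The promoter table held 6 of the 9 genes. Cd44, Itga4 and Itgam (the last in the unnamed cluster 0) were among these and also differed by 2-fold or more in at least 1 cluster. Their promoters are not shown, so this difference does not set the 3 shown apart. Capitals mark copies of GGAAATTCC in Icam1, of GGGCGG in Cxcr4 and of GAGGAA in Ltb4r1, each searched on both strands, so that the Cxcr4 and Ltb4r1 copies appear as the reverse complement.
Icam1 (chr9:21015690-21015939, plus strand): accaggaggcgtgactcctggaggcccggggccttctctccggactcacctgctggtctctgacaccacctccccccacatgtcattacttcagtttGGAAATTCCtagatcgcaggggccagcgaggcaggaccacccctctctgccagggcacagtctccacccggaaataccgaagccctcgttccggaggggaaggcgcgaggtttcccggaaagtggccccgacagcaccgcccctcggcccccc
Cxcr4 (chr1:128592300-128592549, minus strand): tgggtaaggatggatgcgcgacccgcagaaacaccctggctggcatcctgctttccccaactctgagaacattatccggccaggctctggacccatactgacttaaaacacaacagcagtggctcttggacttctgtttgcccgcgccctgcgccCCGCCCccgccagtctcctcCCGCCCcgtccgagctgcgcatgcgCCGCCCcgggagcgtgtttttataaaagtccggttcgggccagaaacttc
Ltb4r1 (chr14:55765712-55765961, plus strand): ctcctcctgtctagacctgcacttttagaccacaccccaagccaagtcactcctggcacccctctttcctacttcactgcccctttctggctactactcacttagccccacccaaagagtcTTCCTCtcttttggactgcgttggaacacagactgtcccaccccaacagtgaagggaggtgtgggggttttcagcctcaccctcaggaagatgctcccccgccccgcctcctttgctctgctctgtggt
GGAAATTCC, whose letters follow the sequence that NF-κB factors bind, began 153 bases before the Icam1 start and was present in 0.286% of 32851 promoters. It was not in the window of the other 5 genes with a promoter. The 3 copies of GGGCGG, the core of the GC box, began 95, 75 and 50 bases before the Cxcr4 start, and at least 3 copies were present in 8.47% of promoters. Itgam, Itga4, Icam1 and Ltb4r1 held 1 copy of GGGCGG each, and at least 1 copy was present in 32.7% of promoters. GAGGAA, the core letters of a PU.1 site, lay 129 bases before the Ltb4r1 start and was present at least once in 23.3% of promoters. Cd44 and Itgam held 2 copies of it each. These are matches of letters in a window, and binding was not measured.

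Between the libraries, most of the 9 genes differed by less than 2-fold in neutrophil-like cells. Cxcr4 was 2-fold lower in aCXCR2, and Selplg and Ltb4r1 had the highest ratios, which were 0.06 and -0.10 with clusters made at resolution 0.5. At that resolution the neutrophil-like clusters held fewer NRS cells (95, 130, 335 and 386). Counting the 8 genes that reached 50 CPM in 1 library or both (all but Itga4), 0 were at least 2-fold higher, against 2.23% of 2956 genes, and 1 was at least 2-fold lower, against 6.97%. The median log2 ratio was -0.13 over these 8 genes and -0.39 over all 2956, and 5 of the 8 lay above the median gene. Scaling factors computed from many genes raise every neutrophil-like ratio by 0.58 (TMM) or 0.59 (median of ratios), a larger shift than reading ratios against the median gene, which stands at -0.39. With either factor 0 genes were 2-fold lower and 3 (Selplg, Itgam and Ltb4r1) were 2-fold higher, and with TMM 0.981% of all genes were 2-fold lower and 7.34% higher. The summed level of 10 neutrophil markers was 58194 CPM in NRS against 169137 in aCXCR2, that of 9 rod markers 948 and 94.1 CPM and that of 5 erythroid markers 231 and 915 CPM, with no marker of these lists at 0. Median depth was 4367 and 7730 UMIs. The part of these differences in the ratios was not tested.

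**Figure D1:**
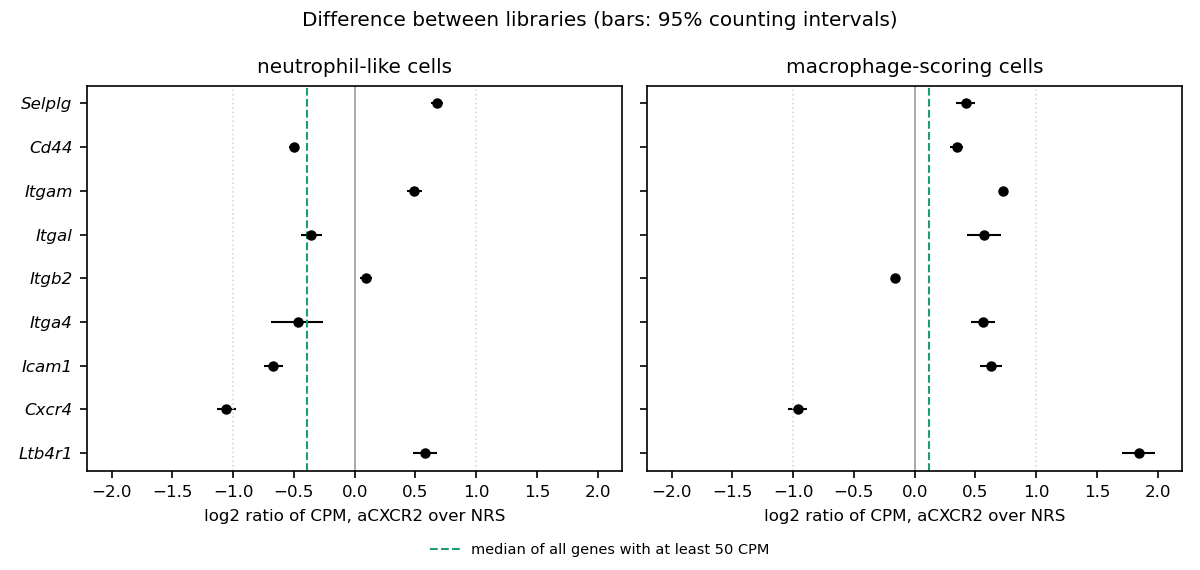
Log2 ratio of CPM, aCXCR2 over NRS, of the 9 genes in neutrophil-like (left) and macrophage-scoring cells (right); bars are 95% counting intervals, the dashed line is the median of all genes with at least 50 CPM and dotted lines mark 2-fold. Cxcr4 lies at -1.06 and -0.96, and Ltb4r1 at 0.58 and 1.85.

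Selplg lies on chromosome 5 (113818536 to 113832644, minus strand, GRCm38) and encodes the main ligand of P-selectin. In neutrophil-like cells it stood at 473 CPM in NRS against 757 in aCXCR2, a log2 ratio of 0.68 (0.63 to 0.73). That is 1.07 above the median gene, with 96.0% of genes at a lower ratio. At an equal depth of 1000 UMIs per cell, 33.4% of the NRS cells and 48.9% of the aCXCR2 cells held a Selplg UMI (64.4% and 89.2% without thinning), while 1.84% and 1.52% of rod-like cells did. Rods should lack these leukocyte transcripts, and their shares serve as the background of free RNA at median depths of 5829.5 and 5796 UMIs.

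The neutrophil clusters differed more in Selplg than the libraries did. Over both libraries it ran from 219.8 CPM in Ccl9/Ppia to 1202 CPM in Fgl2/Hdc, a 5.47-fold range in which 1 of 6 neighbouring pairs overlapped. Fgl2/Hdc cells, in which Hdc encodes histidine decarboxylase, held 1269 CPM in NRS against 906 in aCXCR2. In Retnlg/Ngp cells, whose leading genes encode products of young neutrophils, the aCXCR2 level was 1071 CPM. Cstb/Ftl1 cells had the lowest NRS level, 188 CPM, and 280.3 CPM in aCXCR2. Within the 5 neutrophil clusters that had at least 50 cells in each library, the ratio ran from -0.49 (Fgl2/Hdc) to 0.57 (Cstb/Ftl1). Its mean over these 5 was 0.14, against 0.68 for the summed class. Macrophage-scoring cells held 99.0 and 132 CPM, a ratio of 0.42 (0.34 to 0.50).

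Cd44 (chromosome 2, 102811141 to 102901665, minus strand), the receptor for hyaluronan and a ligand of E-selectin, had a neutrophil-like level of 878 CPM in NRS against 620.4 in aCXCR2. The log2 ratio was -0.50 (-0.54 to -0.46), or -0.11 relative to the median gene, and it turned above 0 with both scaling factors (0.08 with TMM, 0.09 with median of ratios). The difference was uneven over clusters. In Cxcl3/Ccl4 cells, which lead in chemokine transcripts, Cd44 was 1556 CPM in NRS against 676 in aCXCR2 (-1.2, -1.29 to -1.12). Gbp2/Cxcl10 cells, which lead in interferon-induced genes, had 1077 and 602 CPM (-0.84). The Fgl2/Hdc cells were high in both libraries, at 1549 and 1427 CPM, with a ratio of -0.12 whose interval holds 0. Ccl9/Ppia cells, of which aCXCR2 had 39, had 591 CPM in NRS against 842 in aCXCR2. In macrophage-scoring cells the order was opposite, with 210.2 CPM in NRS against 267 in aCXCR2 (0.35, 0.29 to 0.40), and all 3 macrophage clusters with enough cells had ratios between 0.26 and 0.41. At equal depth 50.5% and 44.0% of neutrophil-like cells held a Cd44 UMI, against 2.67% and 2.03% of rod-like cells.

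Of the integrin subunits, Itgam was higher in aCXCR2 in both classes and Itgb2 was nearly level in unscaled CPM. Itgam (chromosome 7, 128062640 to 128118491, plus strand), the αM chain of Mac-1, had 368 CPM in NRS against 517 in aCXCR2 neutrophil-like cells (0.49, 0.43 to 0.55, or 0.89 above the median gene). Within the 5 neutrophil clusters the ratio ran from 0.05 to 0.40, with an interval above 0 in 2 and above that cluster's median gene in all 5. Pycard/Gpx1 cells had the highest neutrophil level, 643 CPM over both libraries, and Cstb/Ftl1 cells the lowest, 289.7 CPM. Macrophage-scoring cells had 354 and 589 CPM (0.73, 0.69 to 0.77). In Ccl8/Selenop cells, which express Mrc1 and Selenop as resident-type macrophages do, Itgam was 287 CPM in NRS against 508 in aCXCR2. The Cxcl3/Mmp12 macrophages had 614 and 930.3 CPM, and Spp1/Gpnmb cells 260.4 and 287 CPM. At equal depth 30.8% of NRS and 42.8% of aCXCR2 macrophage-scoring cells held an Itgam UMI, and 1.67% and 3.05% of rod-like cells did. Itgam shares its locus and strand with the gene model Gm49368 (51.8 and 59.2 CPM in neutrophil-like cells), so reads could be split between them.

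Itgb2 (chromosome 10, 77530252 to 77565708, plus strand), the β2 chain that both Mac-1 and LFA-1 need, was the most even of the 9 genes over neutrophil clusters, with a 1.31-fold range from 421 CPM in Cxcl3/Ccl4 to 551 CPM in Pycard/Gpx1 cells. Of its 6 neighbouring pairs of clusters, 5 overlapped. The libraries had 447 CPM (NRS) and 475 CPM (aCXCR2), a ratio of 0.09 (0.04 to 0.14), with 33.8% and 37.5% of cells at equal depth holding a UMI. Relative to the median gene the ratio was 0.48, and with median-of-ratios scaling it was 0.68. Within clusters the interval lay above that cluster's median gene in 4 of 5. In macrophage-scoring cells the levels were 453 and 406 CPM (-0.16, -0.19 to -0.12), and clusters spread more, from 304 CPM in Ccl8/Selenop to 619 CPM in Cxcl3/Mmp12 cells.

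Itgal (chromosome 7, 127296260 to 127335138, plus strand), the αL chain of LFA-1, stood at 192 CPM in NRS against 150.2 in aCXCR2 neutrophil-like cells (-0.36, -0.44 to -0.27). This is 0.04 above the median gene, and the sign turned with TMM, with median of ratios and with clusters 0 and 1 added. Over clusters it ran 8.55-fold, from 57.3 CPM in Cstb/Ftl1 to 490.2 CPM in Fgl2/Hdc cells. All 5 clusters had lower values in aCXCR2, and the lowest ratios were in Cxcl3/Ccl4 (222 against 105 CPM, -1.08) and Gbp2/Cxcl10 cells (336 against 172 CPM, -0.97). Only the first of these passed 2-fold. The median gene also lay below 0 in all 5 clusters, and the Itgal interval lay below that cluster's median gene in 2 of them. Macrophage-scoring cells had 31.3 and 46.5 CPM (0.57, 0.43 to 0.71), under the 50 CPM used for counting.

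Itga4 (chromosome 2, 79255426 to 79333123, plus strand), the α4 chain of VLA-4, was low in neutrophil-like cells, at 31.9 CPM in NRS against 23.0 in aCXCR2 (-0.47, -0.69 to -0.26). The ratio was -0.08 relative to the median gene, and it turned to 0.11 with TMM and 0.12 with median of ratios. Gbp2/Cxcl10 cells had 129.7 CPM in NRS against 35.1 in aCXCR2 (-1.89), and Fgl2/Hdc cells had 95.3 and 55.0 CPM. Cstb/Ftl1 cells had 3.74 and 3.88 CPM. Macrophage-scoring cells had 66.6 and 98.2 CPM (0.56, 0.46 to 0.66), with 131 CPM in S100a4/Ccr2 cells and 35.2 CPM in Cxcl3/Mmp12 cells. Within clusters the macrophage ratios were smaller, from -0.04 to 0.26. The rods cannot serve as background here, because Itga4 stood at 68.1 and 46.3 CPM in them. Its last 2581 bases overlap Cerkl, a retinal gene on the other strand, which had 216 CPM in rod-like and 0.677 CPM in neutrophil-like cells over both libraries.

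Icam1 (chromosome 9, 21015985 to 21028817, plus strand), whose promoter window holds the GGAAATTCC printed above, had 210.2 CPM in NRS against 132 in aCXCR2 neutrophil-like cells (-0.67, -0.75 to -0.59, or -0.28 relative to the median gene). It was -0.08 with median-of-ratios scaling. At equal depth 15.5% and 10.5% of neutrophil-like cells held an Icam1 UMI. Among rod-like cells 0.167% did in NRS and 0 of 197 in aCXCR2, which allows a share of up to 1.52% if 3 counts are taken as the limit, or 1.86% by the Clopper-Pearson interval. The antisense model Gm47079 at the same locus had 2.2 and 1.3 CPM. Icam1 was 2-fold lower in aCXCR2 in 3 of the 5 neutrophil clusters. Pycard/Gpx1 cells had 193 CPM in NRS against 81.0 in aCXCR2 (-1.25), Cxcl3/Ccl4 cells 423 and 191 CPM (-1.15), and Gbp2/Cxcl10 cells 449 and 204 CPM (-1.14). In Fgl2/Hdc cells, where Icam1 was low (65.8 and 77.6 CPM), the interval of the ratio held 0 (0.24, -0.48 to 0.90). Retnlg/Ngp cells had the lowest aCXCR2 level, 41.7 CPM. In macrophage-scoring cells Icam1 was higher in aCXCR2, with 77.8 and 120.1 CPM (0.63, 0.54 to 0.72), and the ratio was 0.46 in Ccl8/Selenop cells (101 and 139 CPM) and 0.07 in Spp1/Gpnmb cells (56.4 and 59.1 CPM).

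Cxcr4 (chromosome 1, 128588199 to 128592293, minus strand) was the only one of the 9 genes that passed 2-fold in neutrophil-like cells, at 300.4 CPM in NRS against 144 in aCXCR2 (-1.06, -1.13 to -0.98). Relative to the median gene it was -0.66, and 5.35% of genes had a lower ratio. It stayed below 0 under all 12 alternative settings but passed 2-fold in 8, and was -0.46 with median-of-ratios scaling and -0.64 when the unnamed clusters 0 and 1 were added. At equal depth 21.8% of NRS and 12.7% of aCXCR2 cells held a Cxcr4 UMI, against 0.668% and 0.508% of rod-like cells; without thinning the shares were 46.4% and 45.3%.

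The Cxcr4 difference was large in some neutrophil clusters and small in others. Cxcl3/Ccl4 cells had 471 CPM in NRS against 119 in aCXCR2 (-1.98, -2.16 to -1.81). Gbp2/Cxcl10 cells had 574 and 175 CPM (-1.71, -1.92 to -1.5). Both groups of NRS cells lay above every aCXCR2 cluster but Fgl2/Hdc. Pycard/Gpx1 cells had 263 and 123 CPM (-1.10), and Cstb/Ftl1 cells 169.8 and 109 CPM (-0.63). Fgl2/Hdc cells, with Cxcr2 among their leading genes, held the highest level in both libraries, 723 and 657 CPM, and their interval held 0 (-0.14, -0.36 to 0.08). Ccl9/Ppia cells, of which aCXCR2 had 39, had 113 CPM in NRS against 159 in aCXCR2. In 4 of the 5 clusters the interval lay below 0 and below that cluster's median gene. In Cxcl3/Ccl4 cells 4 of 8 counted genes (Cd44, Itgal, Icam1 and Cxcr4) were 2-fold lower in aCXCR2, against 7.68% of genes, and in Gbp2/Cxcl10 cells 3 of 9 (Itga4, Icam1 and Cxcr4), against 13.0%. Itga4 was counted in Gbp2/Cxcl10 cells through NRS alone (129.7 CPM against 35.1 in aCXCR2), so its place there is no support for the difference. For Pycard/Gpx1 cells the count was 2 of 8 (Icam1 and Cxcr4), against 2.71%. It was 0 of 8 in Cstb/Ftl1 cells, against 3.30%, and 0 of 9 in Fgl2/Hdc cells, against 5.72%. In none of these 5 clusters was a counted gene 2-fold higher, where 1.85% (Cstb/Ftl1), 1.16% (Pycard/Gpx1), 2.03% (Cxcl3/Ccl4), 2.02% (Gbp2/Cxcl10) and 1.98% (Fgl2/Hdc) of all genes were. NRS values in Gbp2/Cxcl10 and Pycard/Gpx1 cells come from 94 and 108 cells. These counts use unscaled CPM, and no scaling factor was computed within clusters. Relative to the cluster's median gene, the Cxcl3/Ccl4 ratios were -1.52 (Cxcr4), -0.75 (Cd44), -0.69 (Icam1) and -0.62 (Itgal). In Gbp2/Cxcl10 cells they were -1.41 (Itga4), -1.24 (Cxcr4) and -0.66 (Icam1), and in Pycard/Gpx1 cells -1.09 (Icam1) and -0.94 (Cxcr4).

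**Figure D2:**
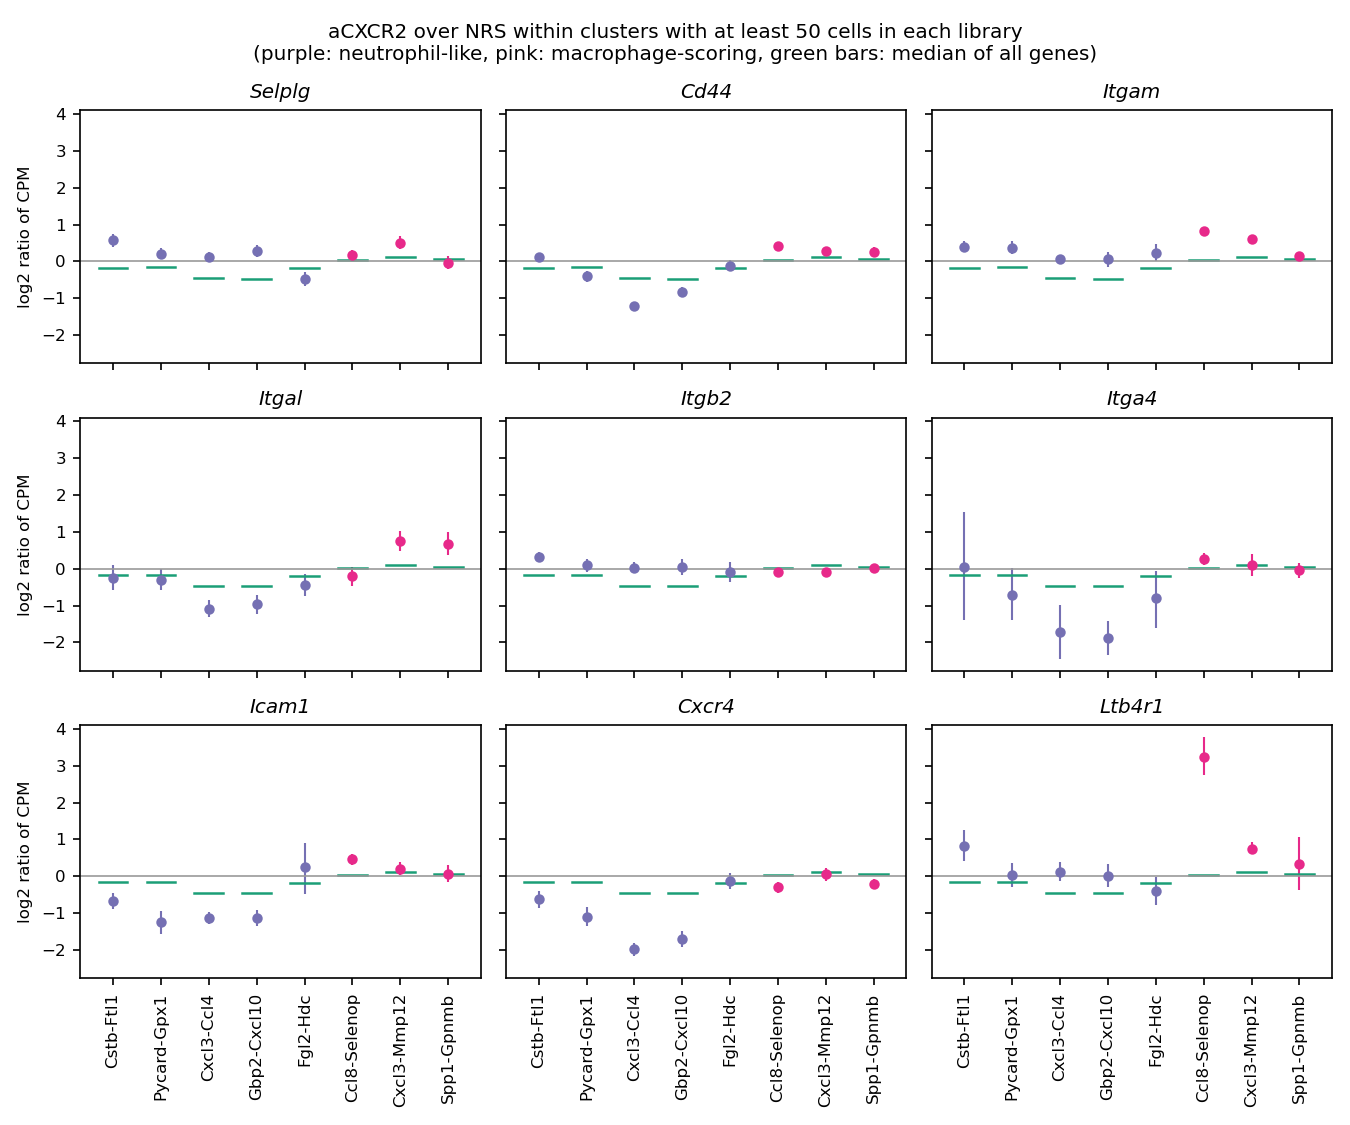
Log2 ratio of CPM, aCXCR2 over NRS, within each cluster that has at least 50 cells in each library (purple neutrophil-like, pink macrophage-scoring); bars are 95% counting intervals and short green lines the median of all genes in that cluster. Cxcr4 runs from -1.98 to -0.14 over the neutrophil clusters, and Ltb4r1 reaches 3.24 in Ccl8/Selenop macrophages.

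In macrophage-scoring cells Cxcr4 had 159.8 CPM in NRS against 81.9 in aCXCR2 (-0.96, -1.04 to -0.89), just short of 2-fold, and 2.73% of genes had a lower ratio. Within clusters it was -0.30 in Ccl8/Selenop, 0.05 in Cxcl3/Mmp12 and -0.20 in Spp1/Gpnmb cells, with a mean of -0.15. The level was highest in Spp1/Gpnmb (216 CPM over both libraries), which made up 43.3% of NRS and 6.84% of aCXCR2 macrophage-scoring cells. It was lowest in S100a4/Ccr2 (31.8 CPM), which made up 5.11% and 32.9%. At equal depth 14.8% and 7.72% of macrophage-scoring cells held a Cxcr4 UMI.

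Ltb4r1 (chromosome 14, 55765962 to 55768494, plus strand), the high-affinity leukotriene B4 receptor, was higher in aCXCR2 in both classes. In neutrophil-like cells it had 116 CPM in NRS against 174 in aCXCR2 (0.58, 0.48 to 0.68, or 0.98 above the median gene). The share at equal depth was 11.1% and 15.4%, against 0.334% and 0.508% in rod-like cells. As with Selplg, clusters differed more than the libraries did within them: Fgl2/Hdc cells had 298 and 226 CPM, Retnlg/Ngp cells 266 CPM in aCXCR2, and Cstb/Ftl1 cells 31.1 and 55.4 CPM. The mean ratio within clusters was 0.12, and Ltb4r1 was -0.10 when clusters were made at a lower resolution, which left fewer NRS cells in the class.

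Macrophage-scoring cells showed the highest ratio of the 9 genes, Ltb4r1 at 32.1 CPM in NRS against 115 in aCXCR2 (1.85, 1.71 to 1.98). It was the 1 of 8 counted genes that was 2-fold higher, against 4.63% of 2853 genes, and 0 were 2-fold lower, against 2.56%. Ltb4r1 reached 50 CPM, the level needed to be counted, in aCXCR2 but not in NRS, so its place in this count is no support for the difference. The median ratio was 0.49 over the 8 genes and 0.12 over all 2853. Its equal-depth share was 3.37% in NRS and 11% in aCXCR2. Ccl8/Selenop cells had 7.87 CPM in NRS, close to the 5.72 CPM of NRS rod-like cells, and 74.4 CPM in aCXCR2 (3.24, 2.74 to 3.79). The Cxcl3/Mmp12 macrophages had 104 and 176 CPM (0.75). In S100a4/Ccr2 cells, of which NRS had 31, the levels were 97.1 and 178 CPM. The Spp1/Gpnmb cells had 5.15 and 6.54 CPM, near the rod-like level. In Ccl8/Selenop cells Ltb4r1, again counted through aCXCR2 alone, was the 1 of 8 counted genes that was 2-fold higher, against 3.78%, and 0 were lower, against 3.23%. Cxcl3/Mmp12 cells had 0 of 8 past 2-fold, against 1.15% higher and 0.873% lower, and Spp1/Gpnmb cells 0 of 7, against 0.639% in each direction. Leaving out Cxcl3/Mmp12, the macrophage cluster with the lowest marker score, gave 3.40. The 10 neutrophil markers summed to 1764 and 3801 CPM in macrophage-scoring cells, the 12 macrophage markers to 38715 and 19748 CPM and the 9 rod markers to 389.9 and 35.3 CPM, with none at 0. Their part in the ratio was not tested.

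**Figure D3:**
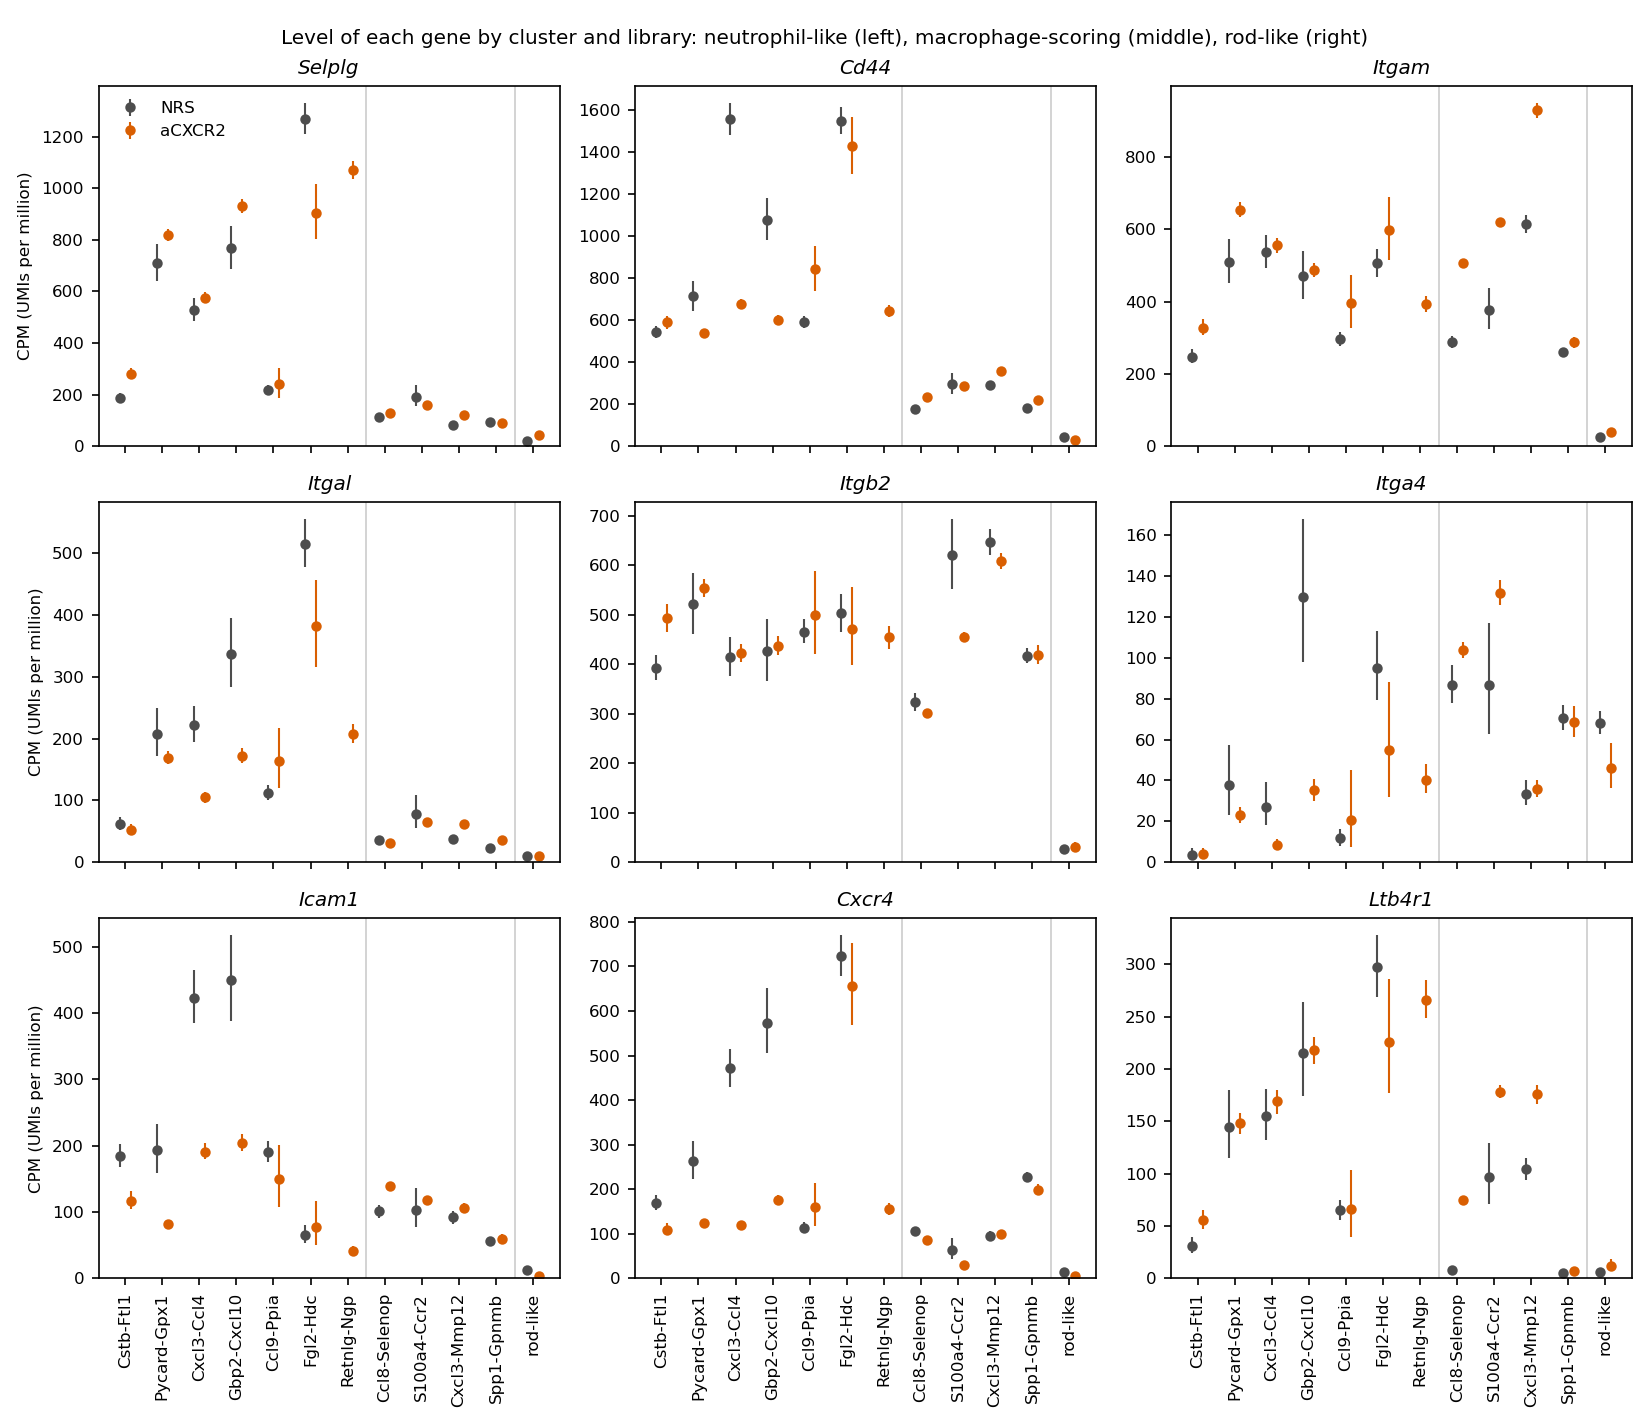
Level of each gene in CPM by cluster and library, with 95% counting intervals; neutrophil-like clusters are on the left, macrophage-scoring clusters in the middle and rod-like cells on the right, and groups under 20 cells are not drawn. Selplg, Itgal, Cxcr4 and Ltb4r1 are highest in Fgl2/Hdc cells of NRS, while Itgb2 stays between 393 and 554 CPM in all neutrophil-like groups shown.

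**Figure D4:**
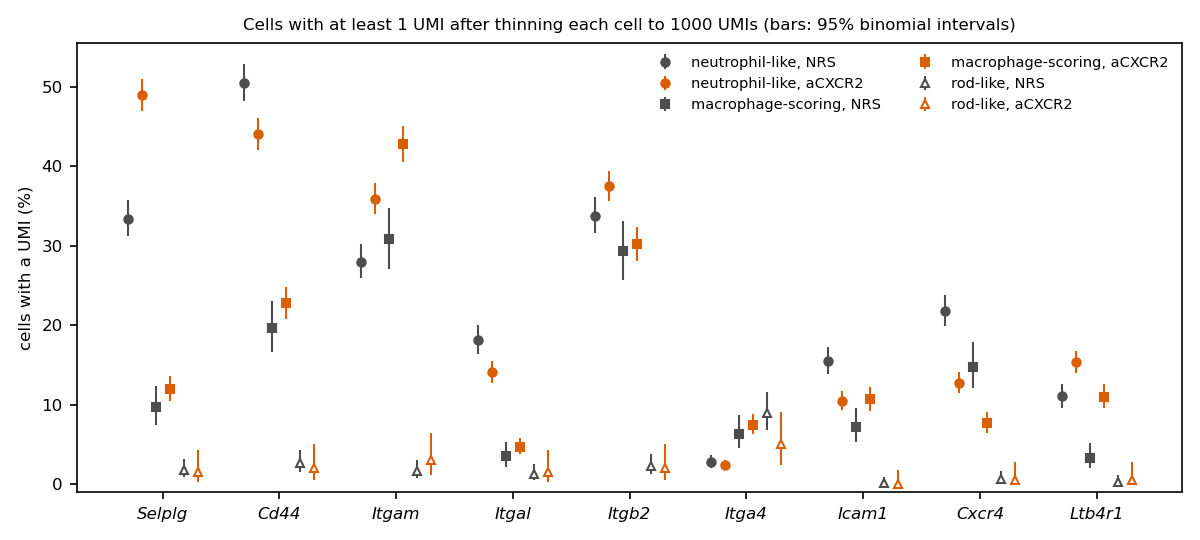
Share of cells with at least 1 UMI of each gene after every cell was thinned to 1000 UMIs, with 95% binomial (Clopper-Pearson) intervals, for neutrophil-like (circles), macrophage-scoring (squares) and rod-like cells (open triangles). Rod-like shares are at or under 3.05% except for Itga4, at 9.02% in NRS and 5.08% in aCXCR2.

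Summed over all kept cells, 2 of the 9 genes were 2-fold higher in aCXCR2, Itgam (1.14) and Ltb4r1 (1.57), against 4.79% of 3550 genes, and 0 were 2-fold lower, against 11.2%. Ltb4r1 was counted here through aCXCR2 alone (42.8 CPM in NRS against 127), so its place in this count is no support for the difference. Itgam was 0.93 with the stricter cell filter, short of 2-fold. These sums mix cell types whose shares differ between the libraries, macrophage-scoring cells being 10.7% and 36.6%.

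The wider adhesion and trafficking list held 81 genes. In neutrophil-like cells 41 of them had at least 50 CPM in 1 library, and 0 were 2-fold higher and 1 (Cxcr4) 2-fold lower, with a median ratio of 0.02 against -0.39 for all genes. The shares over all genes were 2.23% higher and 6.97% lower. With TMM scaling 7 were 2-fold higher, against 7.34% of all genes, and 0 lower, against 0.981%. The 5 counted integrin subunits had a median of -0.34, and the 10 genes of integrin activation one of 0.09. In macrophage-scoring cells 41 genes were counted, and 5 were 2-fold higher, against 4.63% of all genes, and 1 lower, against 2.56%. The chemokine receptor gene Ccr2, which marks recruited monocytes, had 57.2 CPM in NRS against 229 in aCXCR2 (2.0). The formyl peptide receptor gene Fpr2 had 107 and 255 CPM (1.26). Pecam1, an endothelial and leukocyte junction protein, had 16.3 and 56.4 CPM (1.79), and Ltb4r1 is also among the 5. Cx3cr1, the fractalkine receptor gene, was lower, with 80.3 and 24.5 CPM (-1.71). Pecam1 and Ltb4r1 reached 50 CPM in aCXCR2 alone and Cx3cr1 in NRS alone. The places of these genes in the counts are therefore no support for the differences. Ccr2 is also one of the macrophage markers used to name these clusters.

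Across 31 profiles of a cluster in a library, each gene had a set of genes with similar levels, given as Pearson's r of log2(CPM + 10) over 7624 genes. Profiles share libraries, and cell types differ strongly among them, so the values are descriptions. Selplg was most like Sema4a, Sirpb1b and Csf3r (each 0.97), and Itgal was most like Il17ra (0.97). The genes nearest to Icam1 were Rest, Nfkb1 and Nfkb2 (each 0.90), and those nearest to Ltb4r1 were Il1b (0.94), Tarm1 (0.93) and Nfil3 (0.92). Cxcr4 was nearest to B430306N03Rik (0.91), Wipf1 (0.90) and Cd44 (0.89). Itga4 had the least similar neighbours, Etv6 at 0.84 being the nearest. Over the 12 neutrophil-like profiles alone, the 9 genes paired as Selplg with Ltb4r1 (0.96), Itgal with Itga4 (0.94) and Cd44 with Cxcr4 (0.93), and the lowest value was between Icam1 and Itgb2 (-0.54).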

How the data were processed

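Single-cell 3′ libraries (10x Genomics) were sequenced for 1 NRS and 1 aCXCR2 sample. The deposited files hold raw UMI counts per gene and barcode, made by the authors with Cell Ranger, per the submitters' processing notes, which name GRCh38 although the gene identifiers are those of mouse; the sources used here do not give the counting annotation. Gene positions are from GENCODE (GRCm38). The members and lists were chosen with earlier results of these data known.

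The cell filter required 500 UMIs or more, 200 genes or more and no more than 10% mitochondrial UMIs, which left 5655 of 7314 barcodes in NRS and 4826 of 5551 in aCXCR2 (from 61386486 and 85748842 UMIs). With scanpy 1.11.5, 2000 variable genes without the 9 members, 30 principal components and 15 neighbours gave 20 Leiden clusters at resolution 1. A cluster was named from fixed marker lists where its mean log2 excess over the 25th percentile of clusters (100 CPM added) was at least 1 with at least 3 markers detected, no other class did so (the erythroid list was left out of this rule; its score was also 1 or more in Pycard/Gpx1, Cxcl3/Ccl4 and S100a4/Ccr2 cells), and other-class markers did not outnumber its own among its top 10 genes. These limits, and the 20-cell minimum, were chosen after seeing the clusters. Scrublet called 0 and 9 doublets and so did not work; doublets remain.

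Counts were summed by class, cluster and library; ratios have exact conditional intervals, CPM exact Poisson and shares Clopper-Pearson intervals. No test was made. The ratio and interval computation was run on simulated counts that held counting error alone. That checks the code, and not whether the intervals cover the spread between cells or mice. The named genes were the 9 members, Ly6g, the leading genes of each cluster (largest ratio to the rest of the class, 100 CPM added, at least 50 CPM), genes of the wider list at least 2-fold apart, and the 3 genes most correlated with each member; some genes that this rule names are not reported here. Alternatives included TMM (edgeR 4.0.16) and median-of-ratios scaling, other cell filters, removal of high doublet scores, other clusterings and other class memberships. The doublet setting removed the 256 NRS and 186 aCXCR2 cells with the highest Scrublet scores. Because Scrublet did not work, this setting cannot show how the results depend on doublets.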

Additional observations from a re-analysis of the deposited data

Results flagged for a closer look

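For 5 genes the ratio of aCXCR2 over NRS had opposite signs in neutrophil-like and macrophage-scoring cells, with both counting intervals off 0. There was 1 library per group, and the difference was not tested for any of them. The median gene also had opposite signs, at -0.39 and 0.12. The share of all genes with such a pair was not computed, so the count of 5 is not a trait of these genes. Cd44 was -0.50 in neutrophil-like and 0.35 in macrophage-scoring cells. Itgal was -0.36 and 0.57. Itgb2 was 0.09 and -0.16, and Itga4 was -0.47 and 0.56. Icam1 was -0.67 and 0.63. Relative to the median gene of each class the pairs were -0.11 and 0.23 for Cd44, 0.04 and 0.45 for Itgal, 0.48 and -0.28 for Itgb2, -0.08 and 0.44 for Itga4 and -0.28 and 0.51 for Icam1, so Itgal no longer had opposite signs. With TMM the pairs were 0.08 and 0.34 for Cd44, 0.22 and 0.57 for Itgal and 0.11 and 0.55 for Itga4, so these 3 no longer had opposite signs, whereas Itgb2 (0.67 and -0.16) and Icam1 (-0.09 and 0.62) did.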

How the results depend on the processing

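Among the settings run, no gene past 2-fold changed sign. In neutrophil-like cells the ratios of Cd44, Itgal and Itga4, all under 2-fold, turned above 0 with TMM (0.08, 0.22 and 0.11) and with median of ratios (0.09, 0.24 and 0.12), and Itgal also with clusters 0 and 1 added (0.19). In neutrophil-like cells the count of genes 2-fold higher was 0 and became 3 with TMM, 3 with median of ratios and 2 with clusters 0 and 1 added. The count 2-fold lower was 1 and became 0 with TMM, 0 with median of ratios, 2 at resolution 0.5, 0 with the unnamed cluster of the same best class and 0 with clusters 0 and 1. The median ratio, -0.13, became 0.45 (TMM), 0.46 (median of ratios), -0.83 (resolution 0.5), -0.06 (unnamed cluster added), -0.25 (without the cluster of the lowest score) and 0.20 (clusters 0 and 1 added). In macrophage-scoring cells the count 2-fold lower became 1 without the cluster of the lowest score, and the median, 0.49, became 0.38 by per-cell CPM and 0.23 within clusters. Over all kept cells the count 2-fold higher, 2, became 4 with TMM, 4 with median of ratios and 1 with the stricter cell filter, and the median, 0.34, became 0.87, 0.93 and 0.10 in that order, 0.27 by per-cell CPM and 0.24 without shared barcodes. The cause was not tested, except that scaling adds the same shift to every gene. Resolution 0.5 also changed which cells were in the class. Its neutrophil-like clusters held 95, 130, 335 and 386 NRS cells, fewer than the 1783 of the main run. A cluster of 1807 NRS and 226 aCXCR2 cells scored best for neutrophils (0.60), stayed unnamed and was left out. Percentages of all genes 2-fold lower in neutrophil-like cells were 11.9% at 10 CPM and 0.981% with TMM, and 2-fold higher 7.34% with TMM. Among the settings that changed a count, such percentages are given only for TMM in neutrophil-like cells. The other changed counts, including those over all kept cells, therefore cannot be read against the share of all genes. Ltb4r1 stayed 2-fold higher in macrophage-scoring cells in 10 of 10 settings (1.39 to 3.40). Adding unnamed clusters gave no value for macrophages, because none scored best there. The settings with the unnamed clusters 0 and 1, without shared barcodes, with the share expected over draws and with TMM percentages were added after seeing the data. No paired analysis was possible because each group has 1 library. Depth limits Itga4 in neutrophil-like cells (276 and 515 UMIs).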

Other observations

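Clusters 0 and 1, which no class named, held 991 and 833 NRS cells and 64 and 114 aCXCR2 cells. Cluster 0, led by Itpr2, Gadd45b and Ccrl2, had Cd44 at 392 CPM in NRS against 427 in aCXCR2, Itgb2 at 324 and 371 CPM, and Cxcr4 at 109 CPM in both. Its Selplg level was low, 77.0 and 72.4 CPM, and so was Ltb4r1, 13.6 and 15.9 CPM. Itgam was 128 CPM in NRS against 259.5 in aCXCR2 (1.02, 0.76 to 1.28).

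Cluster 1, led by haemoglobin genes and Gsto1, had its highest score for erythroid markers (3.99), a list that could not give a name, and next for neutrophil markers (1.25). It met the score rule for neutrophils but stayed unnamed, because its top 10 genes held 4 erythroid and 0 neutrophil markers. Cxcr4 was 203 CPM in NRS against 85.9 in aCXCR2 (-1.24, -1.65 to -0.86), Itgal 106 and 36.4 CPM (-1.54, -2.18 to -0.95) and Itgam 303 and 483 CPM (0.67, 0.49 to 0.85). Itgb2 was 435 and 333 CPM.

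Cluster 18, which scored best for dendritic cells but just missed the limit (0.99), held 17 NRS and 24 aCXCR2 cells and had Itga4 at 179.7 CPM in NRS against 159.8 in aCXCR2, and Selplg at 458 and 479.5 CPM. Cxcr4 rested on 2 UMIs in NRS and 12 in aCXCR2.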
